A study of Mus musculus with 12 samples.

Results

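The genes described here are 41 components of transforming growth factor beta (TGF-beta) and bone morphogenetic protein (BMP) signalling, measured by RNA sequencing in mouse hearts at embryonic day 9.5. They were chosen by gene symbol from a list of ligands, receptors, SMAD proteins, extracellular regulators, nuclear corepressors and target genes. All 41 were found among the 15663 genes of the joined deposited tables, all 41 are annotated as protein coding in GENCODE M21 (GRCm38), and all 41 passed the filter on low values in each comparison. By role they comprise 9 ligands, 11 receptors and co-receptors, 8 SMADs, 6 extracellular antagonists and modulators, 2 nuclear corepressors and 5 transcriptional targets. The choice did not use measured values, but it was made with earlier results of these data known.

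The hearts came from embryos labelled as strain C57/BL 6, in 4 genotype groups of 3 libraries each. Every group carried the driver labelled NkxCre and at least 1 floxed Asb2 allele, so no group was free of Cre or of a floxed allele. Controls were NkxCre.Asb2fl/+, and the Asb2 conditional knockout (Asb2 cKO) was NkxCre.Asb2fl/fl. A further group was NkxCre.Asb2fl/+.Flnafl/fl and is called Flna-labelled below, while the double mutant group was NkxCre.Asb2fl/fl.Flnafl/fl. ASB2 is the substrate receptor of a cullin ubiquitin ligase, and filamin A, encoded by Flna, is an actin crosslinker among its substrates. The design names single and double mutants beside a pair of control groups, so it asks what changes with Asb2 and whether Flna modifies that change. Recombination follows the Nkx driver, while RNA came from whole hearts, so a lower bulk level cannot separate fewer cells of a type from less RNA per cell. The labels do not say whether a library was 1 embryo or a pool, and the p-values therefore measure the spread between libraries.

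TGF-beta, activin and BMP ligands bind paired type I and type II serine/threonine kinase receptors, and the type I receptor phosphorylates receptor SMADs in the cytoplasm. SMAD2 and SMAD3 carry the TGF-beta and activin branch and SMAD1, SMAD5 and SMAD9 the BMP branch. Both branches share SMAD4, and both are restrained by SMAD6, SMAD7, SKI and SKIL. In the embryonic heart the pathway is known for its part in cushion formation at the atrioventricular canal, in myocardial growth and in the outflow tract.

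Between 25954539 and 42473118 reads per library fell in listed genes, and 1 read was worth 0.0239 to 0.038 CPM, the deposited unit of counts scaled to a common library size. Asb2 stood at 289, 183 and 218 CPM in control and 77.8, 163 and 115 CPM in Asb2 cKO libraries, without overlap (log2 fold change -0.99 ± 0.26 (SE), limma adjusted p = 0.0248). The Flna-labelled libraries, labelled Asb2 fl/+, held 125, 113 and 197 CPM of Asb2, and the double mutants held 122, 121 and 153 CPM. Those groups overlapped, with a log2 fold change of -0.10 ± 0.21 and an adjusted p of 0.737, so the Asb2 transcript did not separate the double mutants from the Flna-labelled group. Flna stood at 490.3, 554 and 721 CPM in control libraries and at 958, 1011 and 989.5 CPM in the Flna-labelled group. That group lay above and not below the controls, though the difference did not pass (log2 fold change 0.76 ± 0.14, limma adjusted p = 0.147). The double mutants, also labelled Flna fl/fl, held 1012, 1012 and 1146 CPM. The Asb2 cKO, which has no Flna label, held 1032, 869 and 725 CPM, also above the controls. Which exons the alleles remove is not given in the sources used here, so these levels do not check the labels where a shortened transcript could still be counted. Xist stood at 0.823, 302 and 106 CPM in control, 571, 0.380 and 377 CPM in Asb2 cKO, 0.0506, 0.123 and 0.367 CPM in Flna-labelled and 0.0477, 0.546 and 9.34 CPM in double mutant libraries. Control 2 and 3 and Asb2 cKO 1 and 3 thus lay above every library labelled Flna fl/fl. The Flna label was therefore partly confounded with Xist level. Defining markers of cardiomyocytes (10 of 10) and of endocardium and endothelium (10 of 10) were present in every library.

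Promoter sequences of 29 of the 41 members were used from a RefSeq table on GRCm38.p6, in 35 windows of 250 bases before an annotated start. No window of the other members was used, and these include the called members Smad4 and Smad7. GGCGCC, a palindrome known from BMP-responsive promoters, was in 9 of the 35 windows and in 9.59% of all 32851 windows of that length. GTCTG or its reverse complement CAGAC, the SMAD-binding element core, was in 16 windows and in 42.2% of all. ACGTG or its reverse complement CACGT, the core of the hypoxia response element, was in 5 windows and in 16.6% of all. CACGTG counts as a match on both strands. Some of the 35 windows, such as those of Bmpr1a, Bmpr2 and Id2, lay partly or wholly in GENCODE M21 exons of their own gene. Some windows of the same gene overlapped, as for Smad5. The 4 windows below were picked from members whose levels differed with Asb2 genotype, and they overlap no annotated exon of GENCODE M21. Windows of other called members met the same terms, such as those of Tgfb1 and Inhba, which hold none of the 3 motifs and are not shown. The 4 shown are written 5′ to 3′ on the gene's strand, with the 3 motifs in capitals. Tgfbr2, Smad9 and Ltbp1 rose and Id4 fell. The pooled calls of Ltbp1 and Id4 were lost with a trend over gene length removed. Smad9 and Id4 both hold 1 GGCGCC, Tgfbr2 holds 1 CAGAC, and in Ltbp1 a CACGT runs into a GTCTG with shared bases. A match is a description of the letters and not a measured binding site. The windows are chr9:116175364-116175613, minus strand, for Tgfbr2, chr3:54755332-54755581, plus strand, for Smad9, chr17:75005279-75005528, plus strand, for the first of the Ltbp1 starts, and chr13:48260866-48261115, plus strand, for Id4.
Tgfbr2: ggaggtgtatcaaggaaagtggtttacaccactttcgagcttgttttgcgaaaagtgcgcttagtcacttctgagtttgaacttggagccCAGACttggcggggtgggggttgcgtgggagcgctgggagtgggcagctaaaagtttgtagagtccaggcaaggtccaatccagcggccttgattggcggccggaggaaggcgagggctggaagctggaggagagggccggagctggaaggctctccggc
Smad9: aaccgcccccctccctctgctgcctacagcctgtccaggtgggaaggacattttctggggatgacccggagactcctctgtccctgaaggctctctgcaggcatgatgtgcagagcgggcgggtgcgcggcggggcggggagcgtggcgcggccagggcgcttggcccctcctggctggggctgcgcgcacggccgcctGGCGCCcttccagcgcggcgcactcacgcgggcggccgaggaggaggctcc
Ltbp1: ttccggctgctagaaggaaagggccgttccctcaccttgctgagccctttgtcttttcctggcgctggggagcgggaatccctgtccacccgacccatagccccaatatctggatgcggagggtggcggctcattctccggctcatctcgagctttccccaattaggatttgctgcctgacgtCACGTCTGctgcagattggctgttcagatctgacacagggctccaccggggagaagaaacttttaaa
Id4: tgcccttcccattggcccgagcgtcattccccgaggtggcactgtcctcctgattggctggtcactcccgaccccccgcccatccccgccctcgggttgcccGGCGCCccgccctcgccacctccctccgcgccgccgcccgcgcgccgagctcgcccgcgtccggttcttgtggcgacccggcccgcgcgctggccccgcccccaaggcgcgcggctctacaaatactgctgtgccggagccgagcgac

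Levels can be compared between genes only per length, so CPM were divided by the deposited gene length in kilobases. On that scale the highest member in control hearts was Fstl1, a secreted glycoprotein related to follistatin, at 193 ± 1.58 CPM per kb (SD, n = 3). The BMP target Id2 followed at 128 ± 8.51 CPM per kb and Id3 at 101 ± 21.98 CPM per kb. The highest ligand was Bmp7 at 45.98 ± 6.21 CPM per kb, and the highest SMADs were the inhibitory Smad6 at 43.7 ± 4.81 and the common mediator Smad4 at 36.9 ± 3.56 CPM per kb. Neighbours in this order could lie within each other's SD, as Bmp7 and Smad6 did. The endothelial co-receptor Eng stood at 31.4 ± 5.44 CPM per kb, the type I BMP receptor Bmpr1a at 29.5 ± 2.16 and the corepressor Ski at 24.6 ± 1.48 CPM per kb. At the low end were Inhba, which encodes an activin subunit, at 0.647 ± 0.560 CPM per kb and the BMP receptor Bmpr1b at 0.331 ± 0.176 CPM per kb. Components of the same pathway thus differed widely in abundance per length.

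Across the comparisons 21 of the 41 members passed the test at least once, 17 as higher and 4 as lower, and 20 passed it in none. Over all 12 libraries, Asb2 fl/fl hearts were compared with Asb2 fl/+ hearts with the Flna label as a covariate. In that fit 16 members rose and 4 fell at an adjusted p below 0.05 (limma, Benjamini-Hochberg over all genes), where 44.9% of all 13981 genes passed, 21.2% as higher and 23.7% as lower. The 20 calls are 48.8% of the members, near the background share, but the split was uneven, with 39.0% of members higher and 9.76% lower. The median log2 fold change of the members was 0.23, against -0.01 over all genes, and 30 of 41 were positive. Among the risen members were the ligands Tgfb1, Tgfb2, Bmp6 and Inhba, 5 receptors (Tgfbr2, Bmpr1a, Bmpr2, Acvr2a and Acvrl1) and 4 SMADs (Smad1, Smad4, Smad7 and Smad9). The extracellular matrix proteins Ltbp1 and Ltbp3 and the corepressor Skil completed them. All 4 members that fell, Id2, Id3, Id4 and Tgfbi, belong to the 5 transcriptional targets. In 8 members (Tgfb2, Inhba, Tgfbr2, Bmpr1a, Acvrl1, Smad1, Smad7 and Skil) all 6 Asb2 fl/fl libraries lay above all 6 others, a pattern found in 10.2% of all genes.

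**Figure D1:**
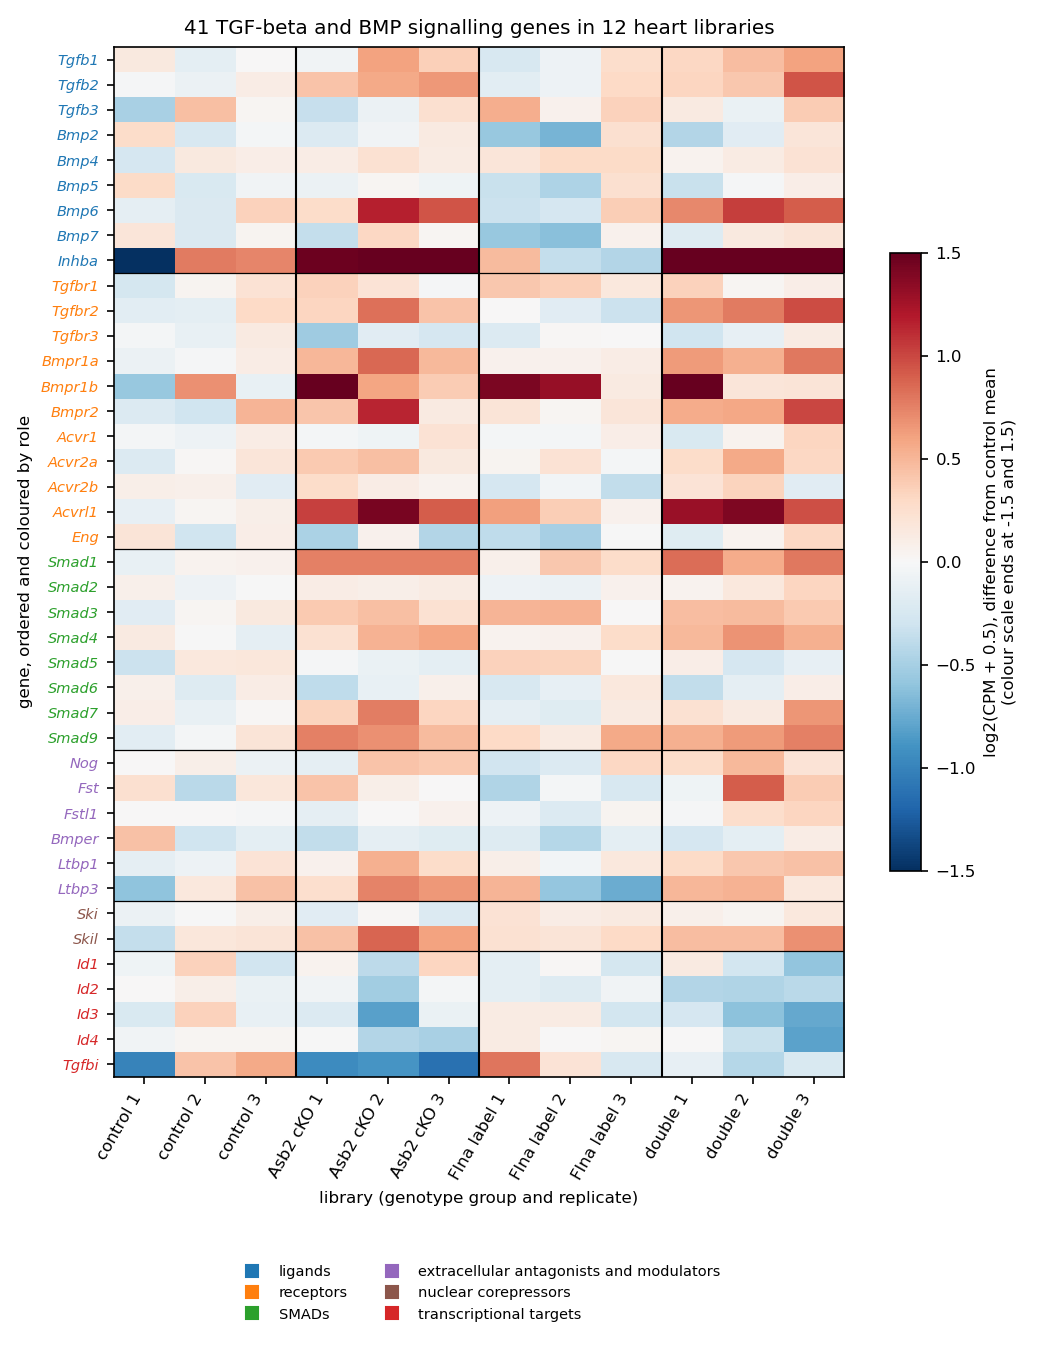
Each row is 1 of the 41 genes and each column 1 of the 12 libraries. Colour gives log2(CPM + 0.5) minus the mean of the 3 control libraries, with the scale ending at -1.5 and 1.5. Inhba, Acvrl1, Bmpr1a and Smad1 are redder in the Asb2 cKO and double mutant columns, while Id3 and Tgfbi vary within groups.

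In the separate comparisons of 3 against 3 libraries, 10 members rose and none fell in the Asb2 cKO against the control, where 21.6% of 14034 genes passed, 10.7% as higher. The double mutant against the control gave 14 higher and 2 lower, where 32.3% passed, 15.6% as higher and 16.7% as lower. Against the Flna-labelled group the double mutant gave 11 higher and 2 lower, where 31.5% passed, 15.1% as higher and 16.3% as lower. In each comparison the share of members called in either direction (24.4%, 39.0% and 31.7%) was near the background, and the share called higher was above it (24.4%, 34.1% and 26.8%). Groups did not overlap, with the member higher or lower, for 12 and 1 members in the Asb2 cKO comparison, where 20% and 21.5% of genes did so. They did not overlap for 17 and 2 members in the double mutant against the control, where 23.6% and 24.2% of genes did so, nor for 14 and 2 against the Flna-labelled group, where 22.4% and 25.1% did so. In the pooled comparison 11.9% of genes were lower without overlap, and 0 members were. Median log2 fold changes were 0.17, 0.19 and 0.29 for the members, against -0.01, 0.01 and -0.02 for all genes. Single libraries moved these counts. The Asb2 cKO comparison gave 5 calls without control 1, 5 without control 2, 4 without Asb2 cKO 2 and 5 without Asb2 cKO 3. The double mutant against the control gave 10 calls without double mutant 2. Against the Flna-labelled group the double mutant gave 7 calls without Flna-labelled 1, Flna-labelled 2 or double mutant 2, and 21 without Flna-labelled 3.

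Of the 9 ligands 4 rose over 12 libraries, namely Tgfb1, Tgfb2, Inhba and Bmp6. Tgfb2, the isoform made by cushion-forming myocardium, measured 103, 98.3 and 113 CPM in control and 93.5, 99.2 and 129 CPM in Flna-labelled hearts. It measured 140.2, 155 and 165 CPM in the Asb2 cKO and 131, 139 and 202 CPM in double mutants. No Asb2 fl/fl library reached down into the fl/+ range. Its log2 fold change was 0.55 ± 0.13 (SE) in Asb2 cKO hearts compared with controls, with a limma adjusted p of 0.0134, and 0.54 ± 0.11 over all 12 libraries, with an adjusted p of 0.00137. Against the Flna-labelled group the double mutant change of 0.54 ± 0.19 missed the threshold (adjusted p = 0.0606), although the groups did not overlap. Tgfb1, the isoform best known from blood and endothelial cells, had a smaller fold change. It stood at 35.6, 28.8 and 32.03 CPM in control, 26.9, 30.3 and 38.6 CPM in Flna-labelled, 30.9, 48.9 and 41.1 CPM in Asb2 cKO and 39.8, 44.3 and 49.1 CPM in double mutant libraries. Double mutants lay above both fl/+ groups and the Asb2 cKO overlapped them. The rise was 0.39 ± 0.12 over 12 libraries (adjusted p = 0.0176).

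Bmp6, a BMP made by several embryonic tissues including myocardium and endothelium, measured 9.15, 8.56 and 12.97 CPM in control and 7.92, 8.37 and 13.1 CPM in Flna-labelled hearts. In the Asb2 cKO it reached 12.2, 23.3 and 19.8 CPM and in double mutants 16.9, 21.2 and 19.2 CPM. The double mutants lay above both fl/+ groups, while Asb2 cKO 1 fell within the control range. Over all libraries the log2 fold change was 0.88 ± 0.17 (adjusted p = 0.00109). Inhba encodes the beta A subunit of activins and inhibins and was the least abundant ligand per length in control hearts. It stood at 0, 1.95 and 1.88 CPM in control, 1.49, 0.615 and 0.551 CPM in Flna-labelled, 3.45, 5.40 and 5.57 CPM in Asb2 cKO and 6.25, 8.22 and 7.45 CPM in double mutant libraries. Control 1 had no read, so a fold change against that group depends on the pseudocount. The log2 fold change was 2.21 ± 0.36 over 12 libraries (adjusted p = 0.000310) and 2.55 ± 0.30 in the double mutant against the Flna-labelled group (adjusted p = 0.000727), the largest of any member in both. Against the control, its call in the Asb2 cKO (adjusted p = 0.0386) was lost with edgeR (0.174), DESeq2 (0.359) and a pseudocount of 0.1 (0.101), and its call in the double mutant was lost in the same 3 ways (0.101, 0.185 and 0.0644). The authors' deposited edgeR results differed there, with Inhba higher in both comparisons at an FDR of 0.0423 and 0.00590.

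The other 5 ligands did not pass the test in any comparison. Bmp2 and Bmp4, which act in cushion induction and in the outflow tract, had log2 fold changes of 0.08 ± 0.16 and 0.02 ± 0.09 with Asb2 genotype, with 95% intervals of -0.27 to 0.43 and -0.17 to 0.20. Bmp7, the most abundant ligand per length, stood at 207, 158 and 188 CPM in control and 143, 227 and 186 CPM in Asb2 cKO libraries, which overlapped, and its change over 12 libraries was 0.21 ± 0.15. For Bmp5 the change was 0.03 ± 0.13 and for Tgfb3 -0.12 ± 0.17. Bmp4 ranged from 43.3 to 63.1 CPM over all libraries.

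Of the 11 receptors 5 rose over 12 libraries, the type I receptors Acvrl1 and Bmpr1a and the type II receptors Tgfbr2, Bmpr2 and Acvr2a. Acvrl1 (ALK1), the type I receptor of endothelial cells for BMP9 and BMP10, lies at chr15:101128522-101145336 in GRCm38. It measured 8.98, 10.1 and 10.5 CPM in control, 15.3, 12.9 and 10.3 CPM in Flna-labelled, 20.6, 27.3 and 18.96 CPM in Asb2 cKO and 24.8, 26.9 and 19.7 CPM in double mutant hearts. All 6 Asb2 fl/fl libraries lay above all 6 others. Its log2 fold change was 1.12 ± 0.19 in the Asb2 cKO against the control (adjusted p = 0.00343), 0.87 ± 0.18 in the double mutant against the Flna-labelled group (adjusted p = 0.00790) and 1.00 ± 0.13 over all libraries (adjusted p = 5.44e-05). Acvrl1 was the only member called in all of these and in the double mutant against the control under every alternative run. Eng, the co-receptor that works with ALK1 in the same cells, did not pass the test. Eng stood at 139, 98.7 and 130.5 CPM in control, 87.00, 127 and 89.8 CPM in Asb2 cKO, 92.8, 85.8 and 121 CPM in Flna-labelled and 107, 126 and 151 CPM in double mutant libraries, and its change over 12 libraries was 0.04 ± 0.16 (95% interval -0.30 to 0.37).

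Bmpr1a (ALK3), a main BMP type I receptor of the myocardium and cushions, lies at chr14:34410734-34503341. Its level was 180.0, 189.5 and 208 CPM in control, 201, 201 and 207 CPM in Flna-labelled, 272, 349 and 269.8 CPM in Asb2 cKO and 299, 277 and 331 CPM in double mutant hearts. The gap between the fl/+ and fl/fl libraries was clear of overlap. It rose by 0.59 ± 0.08 on the log2 scale over 12 libraries (adjusted p = 7.30e-05). Tgfbr2, the type II receptor for TGF-beta ligands, measured 19.9, 20.03 and 27.5 CPM in control, 22.3, 19.7 and 17.6 CPM in Flna-labelled, 27.9, 39.9 and 29.97 CPM in Asb2 cKO and 35.5, 38.5 and 44.3 CPM in double mutant hearts. Here too no library of one Asb2 genotype fell in the range of the other, though control 3 came within reach of Asb2 cKO 1. The rise was 0.97 ± 0.13 in the double mutant against the Flna-labelled group (adjusted p = 0.00138) and 0.75 ± 0.13 over all libraries (adjusted p = 0.000460). In the Asb2 cKO against the control, 0.52 ± 0.19 missed the threshold at an adjusted p of 0.0689, whereas DESeq2 on the recovered reads passed it (0.0425).

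Bmpr2, the type II receptor for BMPs, was spread more widely within groups, at 20.96, 19.7 and 34.8 CPM in control, 27.9, 24.8 and 27.7 CPM in Flna-labelled, 32.6, 54.2 and 26.8 CPM in Asb2 cKO and 36.1, 36.5 and 49.1 CPM in double mutants. Only the double mutants stood clear of the fl/+ groups. The change was 0.57 ± 0.17 over 12 libraries (adjusted p = 0.0156). Acvr2a, an activin and BMP type II receptor, rose by 0.32 ± 0.09 (adjusted p = 0.0120) in that fit and passed in none of the 3 against 3 comparisons. For its related receptor Acvr2b the log2 fold change was 0.24 ± 0.10 (adjusted p = 0.0685). The TGF-beta type I receptor Tgfbr1 (0.01 ± 0.11) and the BMP type I receptor Acvr1 (0.04 ± 0.09) had 95% intervals of -0.22 to 0.24 and -0.16 to 0.24. Tgfbr3, the co-receptor betaglycan, was below the control in all Asb2 cKO libraries, 44.3, 57.1 and 53.8 against 63.2, 59.7 and 70.8 CPM, but did not pass (adjusted p = 0.129). It passed as lower once a trend over gene length was removed (log2 fold change -0.44, adjusted p = 0.0348). Bmpr1b, the scarcest receptor, ranged from 1.61 to 10.4 CPM, and Asb2 cKO 1 and double mutant 1 stood far above the other libraries of their groups.

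**Figure D2:**
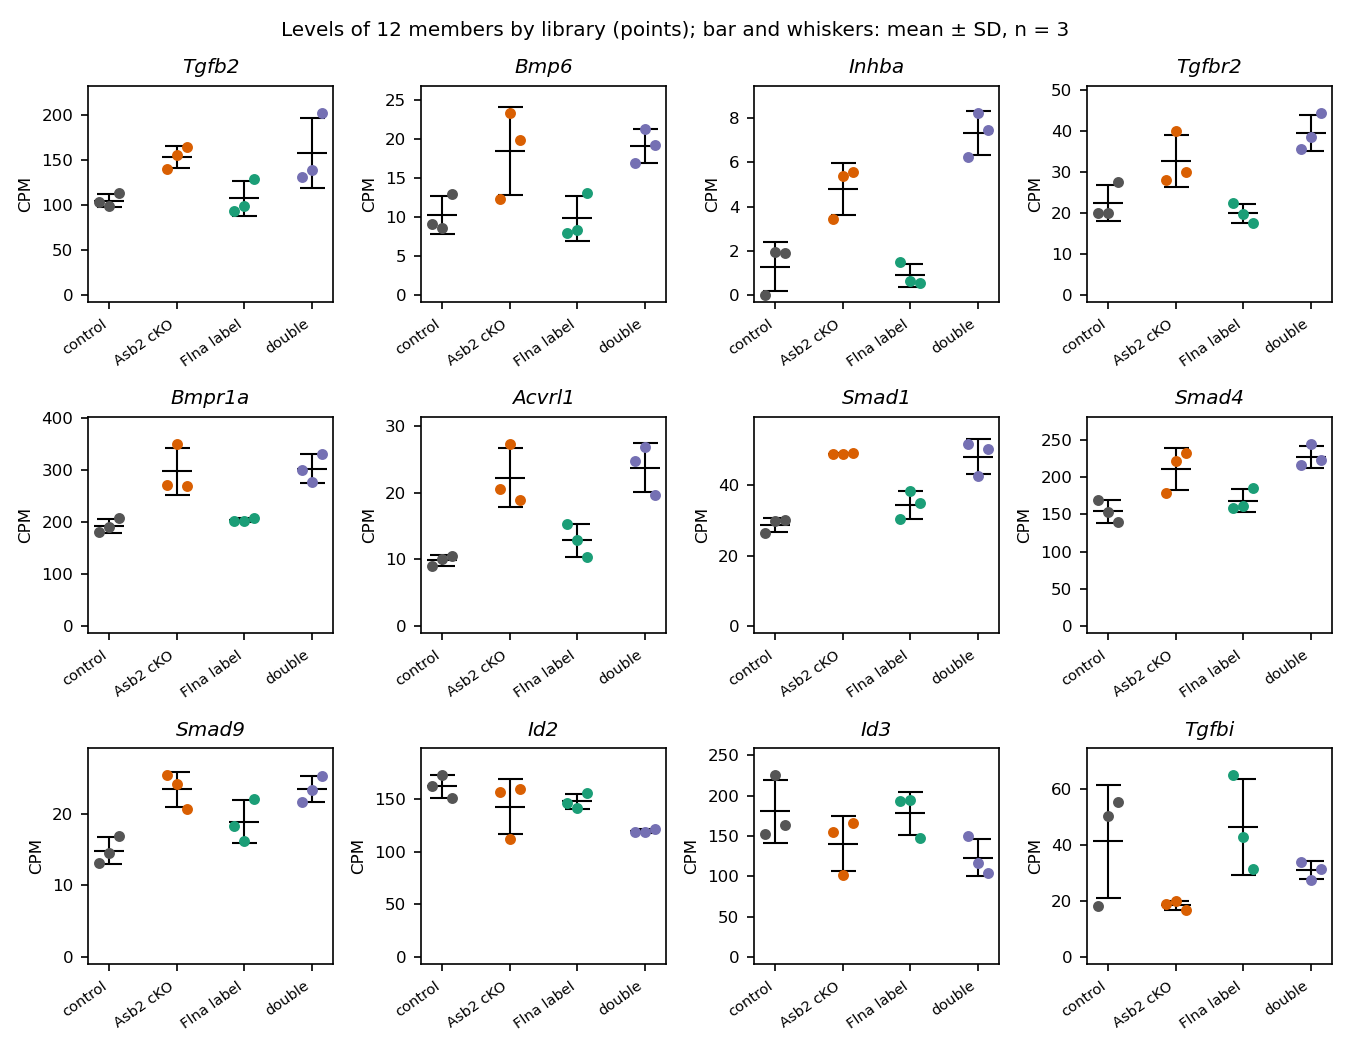
Points give the CPM of each library for 12 genes by genotype group, with the mean and SD (n = 3) as bars, on linear axes that include 0. Acvrl1, Bmpr1a, Tgfbr2 and Smad1 separate the 6 Asb2 fl/fl libraries from the 6 fl/+ libraries, and Tgfbi in control 1, at 18.2 CPM, lies with the Asb2 cKO.

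Of the 8 SMADs 4 rose over 12 libraries, 2 of the BMP branch, the common mediator and the inhibitory Smad7. Smad1, at chr8:79338395-79399518, measured 26.5, 29.8 and 30.05 CPM in control, 30.4, 38.3 and 34.9 CPM in Flna-labelled, 48.9, 48.8 and 49.03 CPM in Asb2 cKO and 51.6, 42.6 and 50.2 CPM in double mutant hearts. All Asb2 fl/fl libraries were above all fl/+ libraries, and the Asb2 cKO libraries agreed to within 1 CPM. The log2 fold change was 0.76 ± 0.13 in the Asb2 cKO against the control (adjusted p = 0.00414), 0.48 ± 0.12 in the double mutant against the Flna-labelled group (adjusted p = 0.0198) and 0.62 ± 0.09 over 12 libraries (adjusted p = 0.000115). Smad9 (SMAD8), the less abundant BMP SMAD, stood at 13.2, 14.5 and 16.9 CPM in control, 18.3, 16.2 and 22.1 CPM in Flna-labelled, 25.4, 24.1 and 20.7 CPM in Asb2 cKO and 21.7, 23.3 and 25.3 CPM in double mutants. Flna-labelled 3 lay among the Asb2 fl/fl libraries. Its change over 12 libraries was 0.48 ± 0.11 (adjusted p = 0.00344). Smad5, the other BMP SMAD, did not pass, with a log2 fold change of -0.20 ± 0.10 (95% interval -0.42 to 0.02, adjusted p = 0.130).

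Smad4 measured 169, 153 and 139.5 CPM in control, 159, 161 and 186 CPM in Flna-labelled, 179, 221 and 232 CPM in Asb2 cKO and 216, 244 and 222 CPM in double mutant hearts. Asb2 cKO 1 lay below Flna-labelled 3, and the other fl/fl libraries stood above every fl/+ library. The rise was 0.44 ± 0.08 over 12 libraries (adjusted p = 0.000779). Smad7, an inhibitory SMAD that TGF-beta signalling induces as feedback, stood at 48.3, 41.7 and 45.5 CPM in control, 40.9, 39.6 and 49.4 CPM in Flna-labelled, 57.1, 76.98 and 56.4 CPM in Asb2 cKO and 53.1, 49.4 and 71.5 CPM in double mutants. The lowest fl/fl and the highest fl/+ library were within 1 CPM of each other, both at about 49.4 CPM. Its change was 0.44 ± 0.11 (adjusted p = 0.00510). Smad6, the inhibitory SMAD that BMP signalling induces, did not pass, with -0.10 ± 0.11 (95% interval -0.33 to 0.12). For the TGF-beta SMADs the changes were 0.16 ± 0.07 for Smad2 (adjusted p = 0.0765) and 0.23 ± 0.10 for Smad3 (adjusted p = 0.0791). Smad3 passed in the double mutant against the control alone (0.44 ± 0.11, adjusted p = 0.0136). The Flna-labelled libraries held 112, 112 and 78.1 CPM of it against 68.98, 79.3 and 86.7 CPM in control and 107, 109 and 103 CPM in double mutant libraries.

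Outside the cell, the latent TGF-beta binding proteins were the members that passed. Ltbp1, a matrix protein that stores latent TGF-beta, measured 140.2, 145 and 178 CPM in control, 163, 149 and 172 CPM in Flna-labelled, 161, 223 and 186 CPM in Asb2 cKO and 188, 203 and 208 CPM in double mutants. Control 3 reached into the Asb2 cKO range and the double mutants lay above both fl/+ groups. It rose by 0.30 ± 0.09 (adjusted p = 0.0131), which fell to 0.12 (adjusted p = 0.188) once a trend over gene length was removed. Ltbp3, a related binding protein, ranged from 4.30 to 13.0 CPM and its change was 0.61 ± 0.22 (adjusted p = 0.0390). That call ended without any 1 of 7 libraries (control 1, Asb2 cKO 2 or 3, Flna-labelled 2 or 3, double mutant 1 or 2; adjusted p 0.0685 to 0.0918) with edgeR (0.0643) and with Xist as a covariate (0.0554). Nog, which encodes the BMP antagonist noggin, had a log2 fold change of 0.30 ± 0.13 (adjusted p = 0.0741), and Fst, which encodes the activin antagonist follistatin, one of 0.41 ± 0.19 (adjusted p = 0.0885). Fstl1, the most abundant member, ranged from 612 to 879 CPM over all libraries, with a log2 fold change of 0.12 ± 0.09. For Bmper, a BMP-binding endothelial regulator, it was -0.03 ± 0.13.

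The 2 nuclear corepressors of SMAD complexes differed. Skil (SnoN), itself a TGF-beta target, measured 52.7, 76.2 and 77.3 CPM in control, 79.2, 77.3 and 83.6 CPM in Flna-labelled, 92.01, 124 and 103 CPM in Asb2 cKO and 93.4, 93.3 and 109 CPM in double mutant hearts. Every fl/fl library exceeded every fl/+ library, and control 1 was the lowest of all. Skil rose by 0.47 ± 0.11 over 12 libraries (adjusted p = 0.00430). For Ski the log2 fold change was -0.09 ± 0.07 (95% interval -0.23 to 0.05, adjusted p = 0.262).

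Among the 5 transcriptional targets, all log2 fold changes with Asb2 genotype were negative and 4 passed the test over 12 libraries. The Id genes encode inhibitors of bHLH transcription factors and are BMP targets in many cells. Id3 measured 152, 225 and 164 CPM in control, 194, 194 and 147 CPM in Flna-labelled, 155, 101 and 166 CPM in Asb2 cKO and 149.7, 116 and 104 CPM in double mutant libraries. The double mutants lay below the control but overlapped the Flna-labelled group, where Flna-labelled 3 was at 147 CPM. Its change was -0.45 ± 0.14 over all libraries (adjusted p = 0.0201) and -0.54 ± 0.17 in the double mutant against the control (adjusted p = 0.0393). Without control 2, the highest library, the first of these ended at an adjusted p of 0.0502. The second was lost with a trend over gene length removed (0.0817), with length and GC trends removed (0.103), in a joint fit of the 4 groups (0.0625) and in that fit with Xist as a covariate (0.268).

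Id2 stood at 163, 173 and 151 CPM in control, 146, 142 and 156 CPM in Flna-labelled, 157, 113 and 159 CPM in Asb2 cKO and 119, 119 and 122 CPM in double mutants. The double mutants were closely grouped below both fl/+ groups, while Asb2 cKO 1 and 3 lay within the control range. It fell by 0.43 ± 0.10 in the double mutant against the control (adjusted p = 0.00870) and changed by -0.25 ± 0.09 over 12 libraries (adjusted p = 0.0300). Both calls were lost when a trend over gene length was removed, at adjusted p = 0.0514 and 0.191, the first also in a joint fit with Xist as a covariate (0.0997), and the second also without any 1 of 6 libraries (control 2, Asb2 cKO 2, Flna-labelled 1 or 3, double mutant 1 or 2; up to 0.067). Id4, the scarcest of the 4, ranged from 7.78 to 15.2 CPM and changed by -0.37 ± 0.14 (adjusted p = 0.0390). Its call was lost after length correction (0.138), with edgeR (0.0564), with Xist as a covariate (0.0511), and without any 1 of 9 libraries (control 2 or 3, Asb2 cKO 2 or 3, any Flna-labelled, double mutant 2 or 3; 0.0594 to 0.0886). Id1 did not pass, at 123, 164 and 106 CPM in control and 134, 98.03 and 161 CPM in Asb2 cKO libraries, with a change of -0.06 ± 0.15 (95% interval -0.38 to 0.26).

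Tgfbi, a secreted matrix protein named for its induction by TGF-beta, measured 18.2, 50.2 and 55.3 CPM in control, 64.8, 42.7 and 31.3 CPM in Flna-labelled, 19.00, 19.9 and 16.7 CPM in Asb2 cKO and 33.9, 27.5 and 31.5 CPM in double mutants. Control 1 lay with the Asb2 cKO and far from the other controls. The change over 12 libraries was -0.75 ± 0.25 (adjusted p = 0.0267), and it was lost without any 1 of control 2 or 3, Asb2 cKO 2 or 3 or Flna-labelled 1 (0.0561 to 0.0643). Summed over the 7 epicardial markers, the same control libraries held 53.0, 322 and 392 CPM, the Asb2 cKO 211, 152 and 159.9 CPM, the Flna-labelled 315, 254 and 194 CPM and the double mutants 219, 133 and 170.4 CPM. Tgfbi thus was low in the control library that was low in these markers, and their part in its change was not tested. None of the 7 markers passed the test over 12 libraries, where 2 had positive fold changes.

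**Figure D3:**
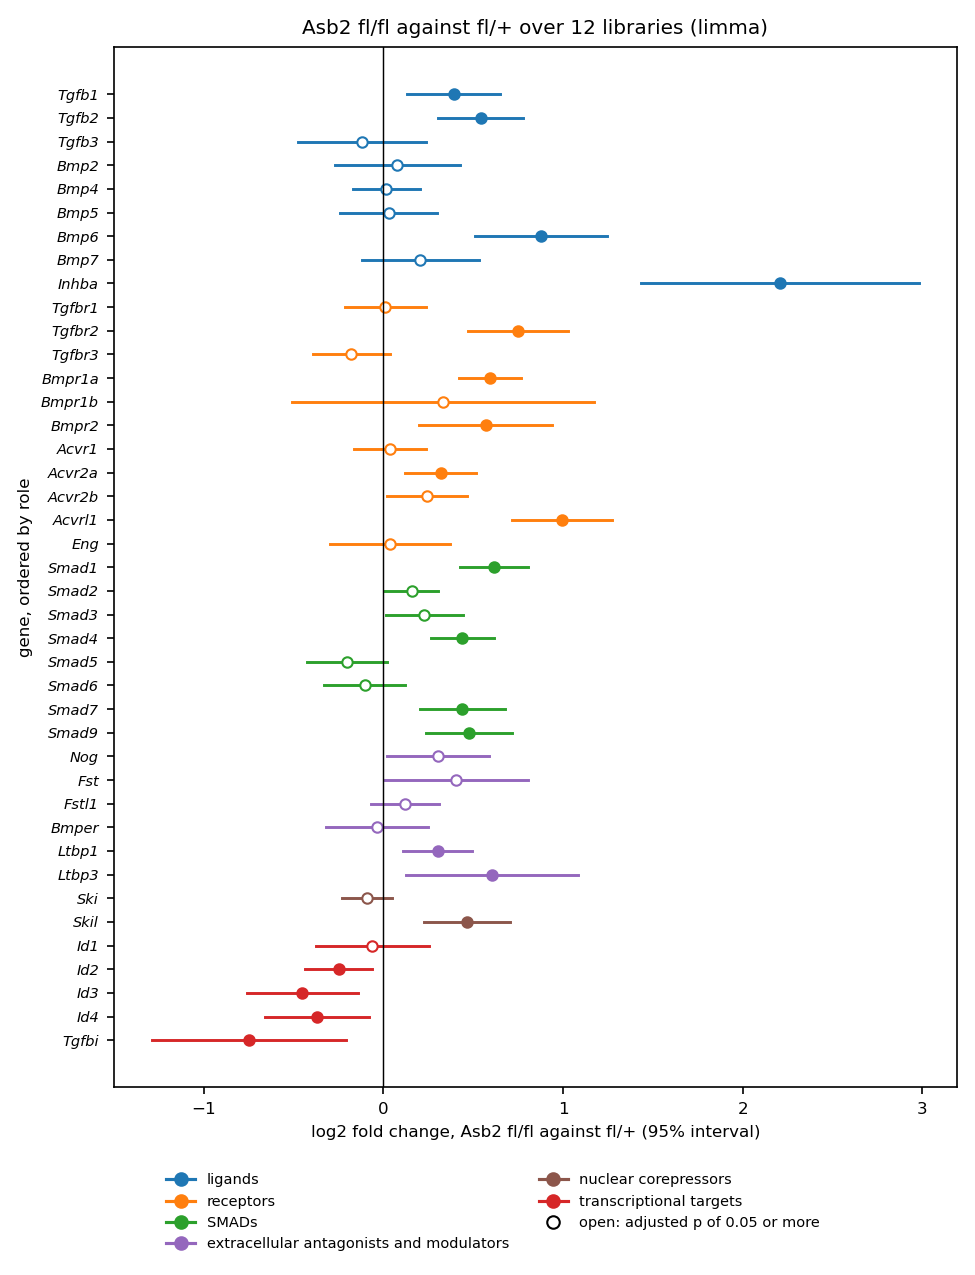
Points are log2 fold changes of the 41 genes between Asb2 fl/fl and fl/+ hearts over 12 libraries, with 95% intervals, ordered and coloured by role. Filled points passed an adjusted p of 0.05, 16 to the right of 0 and 4 to the left, and Inhba has the widest interval among the filled points.

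No member passed the test with the Flna label, which was partly confounded with Xist level. In the Flna-labelled group against the control, limma called 0 of 41 members, as did edgeR and DESeq2, where 0.072% of all genes passed. At an unadjusted p below 0.05 there was 1 member, Tgfbr1, with a limma adjusted p of 0.372 and a log2 fold change of 0.31 ± 0.13. Over all 12 libraries the Flna label gave 0 calls among the members with limma and 0 with edgeR, and 0% of all genes passed. There, 1 member had an unadjusted limma p below 0.05, Ski at 0.18 ± 0.07 (adjusted p = 0.890). Double mutants compared with Asb2 cKO hearts gave 0 members with limma and edgeR, where 0.0214% of genes passed, and 2 at an unadjusted p below 0.05. These were Inhba (0.58 ± 0.24, adjusted p = 0.999) and Tgfbi (0.72 ± 0.15, adjusted p = 0.999). DESeq2 called Tgfbi alone, at a log2 fold change of 0.73 and an adjusted p of 0.0291. Inhba, Tgfbi and Ski were the 3 members whose double mutant libraries all lay above every Asb2 cKO library, and 0 lay below. The share of all genes with such a pattern is not given here, so this is a description only.

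The interaction term asks whether the difference with Asb2 genotype depends on the Flna label. It was called for 0 of 41 members and 0 of 13981 genes with limma, and for 0 members with edgeR. At an unadjusted p below 0.05 there was 1 member, Eng, with 0.64 ± 0.26 (limma adjusted p = 0.489). The log2 fold change of Eng was -0.28 ± 0.18 in the Asb2 cKO against the control and 0.36 ± 0.16 in the double mutant against the Flna-labelled group, and neither passed. The interaction estimate with the largest SE, -1.19 ± 0.73 for Bmpr1b, had a 95% interval of -2.76 to 0.39, so a sizeable dependence was not detectable for the scarcer members.

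The Asb2 cKO and the double mutant, set against the control and the Flna-labelled group respectively, share no library and both contrast Asb2 fl/fl with fl/+. Of the members, 7 rose in both, namely Acvrl1, Bmpr1a, Smad4, Skil, Smad1, Bmp6 and Inhba, which is 70.0% of the 10 called higher in the first and 63.6% of the 11 in the second. Over all genes 974 rose in both, 66.3% and 46.2% of the respective lists. None of the members called in one contrast was called in the other direction in the other. The sign was the same for 32 of 41 members (78.0%) and for 76.5% of all genes, so the members agreed between the contrasts about as often as genes in general. Tgfb2, Smad7 and Smad9 were called in the first alone, and Tgfb1, Tgfbr2, Bmpr2 and Ltbp1, with Id2 and Id3 as lower, in the second alone. Since the interaction passed for none of them, these differences between the lists are not shown to be differences in response.

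**Figure D4:**
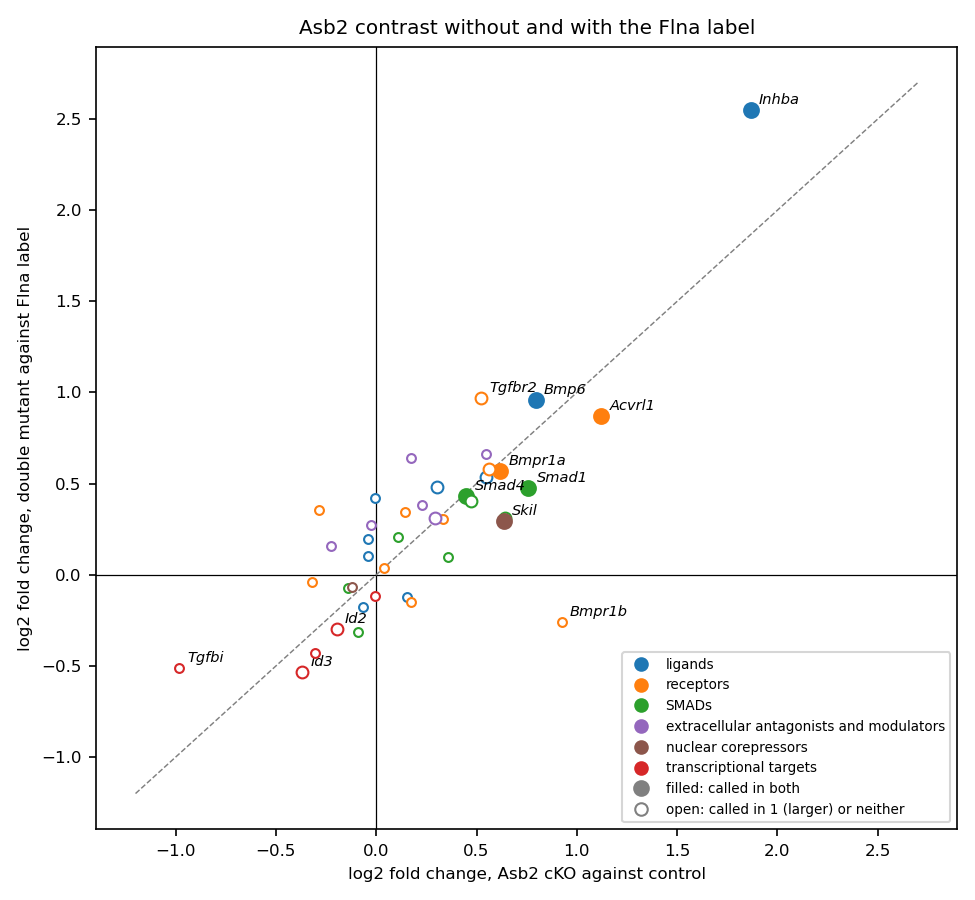
Each point is a gene, with the log2 fold change of the Asb2 cKO against the control on the horizontal axis and of the double mutant against the Flna-labelled group on the vertical axis. The dashed line marks equal values. The 7 filled points were called in both and lie in the upper right, with Inhba farthest out at 1.87 and 2.55.

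In the comparisons of 3 against 3, several calls rested on single libraries. For the Asb2 cKO against the control, the calls of Acvrl1 and Smad1 remained without any 1 library. Smad7 lost its call without each of the 6 libraries in turn (adjusted p up to 0.156), and Smad4 without each except Asb2 cKO 1 (up to 0.134). Bmp6 lost it without control 1 or 2 or Asb2 cKO 2 or 3 (0.115 to 0.144), and Smad9 without control 1 or 2 or Asb2 cKO 1 or 2 (0.0532 to 0.0765). Skil lost it without control 1 or Asb2 cKO 2 or 3 (up to 0.0953), Inhba without any 1 Asb2 cKO library (up to 0.123), Bmpr1a without control 1 (0.0534) and Tgfb2 without control 2 (0.0598). Acvrl1, Bmpr1a, Smad1, Smad4, Smad9, Tgfbr2, Bmp6, Inhba and Id2 kept theirs in the double mutant against the control without any 1 library. There, Tgfb1 lost its call without control 2 or double mutant 2 or 3 (up to 0.0874), Tgfb2 without control 1 or 2 (up to 0.0713), and Smad3 without double mutant 2 (0.0589). Bmpr2 and Ltbp1 lost theirs without control 1 or 2 or double mutant 2 or 3 (up to 0.107 for each), Skil without control 1 or double mutant 2 or 3 (up to 0.071), and Id3 without control 2 or 3 or double mutant 2 or 3 (up to 0.122). Against the Flna-labelled group, Acvrl1, Bmpr1a, Tgfbr2, Bmp6 and Inhba kept their calls without any 1 library. In that comparison Tgfb1, Id3 and Ltbp1 lost theirs without Flna-labelled 1 or 2 or double mutant 2 or 3 (up to 0.127, 0.11 and 0.123), and Skil without each library except Flna-labelled 3 (up to 0.131). Smad1 lost its call there without Flna-labelled 1 or double mutant 1 or 3 (up to 0.0762), Smad4 without Flna-labelled 1 or double mutant 2 (up to 0.0526), Bmpr2 without Flna-labelled 2 (0.0549), and Id2 without Flna-labelled 1 or 2 or double mutant 2 (up to 0.0736). In a joint fit of the 4 groups with Xist as a covariate, the double mutant against the control also lost Bmp6 (0.0741), Bmpr2 (0.175), Ltbp1 (0.139), Smad3 (0.0736) and Tgfb1 (0.240). The joint fit alone ended the calls of Bmpr2, Id2, Id3, Ltbp1, Skil and Tgfb1 against the Flna-labelled group (0.0532 to 0.155) and of Tgfb1 against the control (0.0567).

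Other genes of the pathway came from a list of 86, of which 74 were in the tables. In the pooled comparison by Asb2 genotype 15 of the 68 tested rose and 9 fell, with a median log2 fold change of 0.06. These are 22.1% and 13.2% of the list, where 21.2% of all genes rose and 23.7% fell. In the Asb2 cKO against the control 8 of 67 rose and 3 fell (11.9% and 4.48%, against 10.7% and 10.9% of all genes). In the double mutant 13 of 66 rose and 7 fell against the control (19.7% and 10.6%, against 15.6% and 16.7%), and 9 of 68 rose and 8 fell against the Flna-labelled group (13.2% and 11.8%, against 15.1% and 16.3%). With the Flna label 0 of 69 passed against the control. Ctgf, a matricellular protein induced by TGF-beta and by YAP, measured 57.3, 50.1 and 47.7 CPM in control, 36.2, 46.7 and 55.7 CPM in Flna-labelled, 135, 259 and 243 CPM in Asb2 cKO and 253, 266 and 324 CPM in double mutants, without overlap by Asb2 genotype. It rose by 2.29 ± 0.18 over 12 libraries (adjusted p = 9.69e-07). Fstl3, a secreted activin antagonist, measured 2.40, 2.55 and 3.63 CPM in control and 10.1, 18.1 and 12.6 CPM in Asb2 cKO libraries and rose by 2.06 ± 0.16 over 12 (adjusted p = 5.80e-07). Sost, a BMP and Wnt antagonist, rose by 1.18 ± 0.13 (adjusted p = 1.32e-05), and Cyr61, a relative of Ctgf, by 1.26 ± 0.14 (adjusted p = 1.77e-05).

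Some transcripts of other cell types and of low oxygen also moved with Asb2 genotype. Summed over 10 primitive erythroid markers, the controls held 7472 to 8069 CPM, the Asb2 cKO 512 to 1203 CPM, the Flna-labelled group 3064 to 3933 CPM and the double mutants 355 to 605 CPM. All 10 fell in the pooled comparison, and 4 of 10 fell in the Flna-labelled group against the control. Of 11 hypoxia-induced genes, 11 rose in the pooled comparison by Asb2 genotype, with a median log2 fold change of 2.16. Endocardial and endothelial markers summed to 863 to 1033 CPM in control and 957 to 1392 CPM in Asb2 cKO libraries. Their sums were 748 to 967 CPM in Flna-labelled and 1206 to 1610 CPM in double mutant libraries. Of these markers 7 of 10 rose in the pooled comparison. The list was split in the Asb2 cKO against the control, where 2 rose and 2 fell, while 6 rose and 0 fell in the double mutant against the control. The 8 cushion mesenchyme markers summed to 827 to 1091 CPM in control and 1098 to 1434 CPM in Asb2 cKO libraries, and to 725 to 1117 CPM in Flna-labelled and 1068 to 1499 CPM in double mutant libraries, which overlapped. Vcan alone held most of each sum, at 572 to 886 CPM in control and 849 to 1311 CPM in Asb2 cKO libraries. Of the 8 cushion markers 1 rose and 2 fell in the pooled comparison, and 3 had positive fold changes. Pharyngeal endoderm and surface epithelium markers summed to 242 to 330.1 CPM in control and 464 to 647 CPM in Asb2 cKO libraries, and to 246 to 491 CPM in Flna-labelled and 348 to 590 CPM in double mutant libraries, which overlapped. Of these 4 of 10 rose in the pooled comparison. Liver bud and yolk sac markers summed to 13.6 to 367 CPM in control, 41.2 to 154 CPM in Asb2 cKO, 140 to 499 CPM in Flna-labelled and 30.7 to 48.1 CPM in double mutant libraries, and 4 of 10 fell. No marker of the endothelial, cushion, epicardial, pharyngeal, erythroid or hypoxia lists was at 0 in any library. The part of these transcripts in the members' changes, such as the rise of the endothelial receptor Acvrl1, was not tested.

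Gene length moved with the fold changes. Across the 13981 genes, the change with Asb2 genotype had a Spearman correlation of 0.193 with deposited length, given as a description since genes share libraries, and medians of -0.12, -0.07 and 0.08 for genes under 2000, from 2000 to 4000 and over 4000 bases. The Id genes are short, from 1267 bases for Id2 to 1786 for Id3, while Ltbp1, at 10512 bases, is the longest member. With the trend over length removed from each library, Ltbp1, Id2 and Id4 lost their calls over 12 libraries, and Id3 and Tgfbi kept theirs. Under that setting Fst, Smad2, Nog and Acvr2b passed as higher, at log2 fold changes of 0.48, 0.19, 0.40 and 0.34, and Tgfbr3 as lower at -0.26. The other 15 members called higher kept their calls under that setting, which was chosen after seeing the data.

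**Figure D5:**
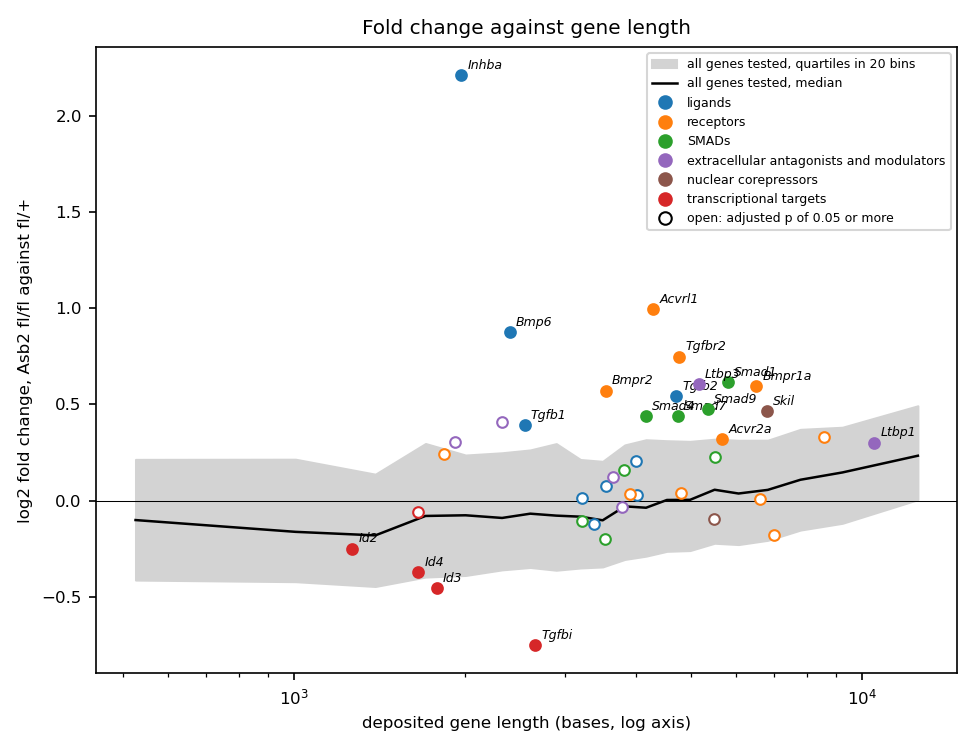
The log2 fold change between Asb2 fl/fl and fl/+ hearts is plotted against deposited gene length on a log axis. The black line and grey band are the median and quartiles of all genes tested in 20 bins of length, and points are the members, filled where called. The line runs from below to above 0, and Id2 and Ltbp1, at its short and long ends, lie within the band, while Acvrl1, Tgfbr2, Bmp6 and Inhba lie above it.

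In the authors' deposited tables the same members were tested with edgeR. At an FDR below 0.05, 11 members were higher and 1, Tgfbi, was lower in the Asb2 cKO against the control, where 26.6% of the listed genes passed in the authors' deposited table. For the double mutant against the control, the authors' deposited table had 13 higher and 2 lower, where 28.9% passed. For the Flna label over the control the authors' deposited table had 0 members, where 0.78% of genes passed, and for double over Asb2 single mutants it had 0 members, where 0.145% passed.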

How the data were processed

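RNA sequencing of 12 heart libraries, 3 in each of 4 genotype groups, was used as the authors deposited it, in 4 tables of comparisons between groups. Per the submitters' processing notes, STAR, HTSeq, edgeR and mm10 were used, with versions and settings not given in the sources used here. The deposited per-library values are a signal, gene counts divided by a scaled library size (CPM), beside a deposited gene length in bases. The authors' deposited tables also hold log2 fold changes, p-values and FDR (p-values adjusted over genes). Another 12 columns of per-sample values were not used. A plain CPM had been assumed for the design, and limma remained the test. Whole reads were recovered from the steps of the low values, and 100.0% of values came out whole within 0.01 read. Shared values agreed between tables within 4.4e-06 CPM, and the recovered depth, 25954539 to 42473118 reads per library, sets the counting precision.

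From these, log2(CPM + 0.5) was tested with limma 3.58.1 in R 4.3.3 over genes whose mean in the libraries fitted reached 1 CPM. P-values were adjusted by Benjamini-Hochberg over all genes, and below 0.05 a gene was called. A fold change on this scale understates the change of low genes. Separate comparisons used the 2 groups concerned, and pooled fits all 12 libraries with Asb2 and Flna genotype as terms. Alternatives were other pseudocounts (0.1 and 2), other filters, edgeR 4.0.16 and DESeq2 1.42.0 on recovered reads, joint fits, Xist as a covariate, a replicate block and each library left out. The limma and edgeR fits of each comparison were tried on simulated reads, and the other alternatives were not. Tables were joined in R (data.table, 1.17.8) and pandas 2.3.3, and plots made with matplotlib 3.10.9. Gene positions are from GENCODE M21, and promoter sequences from RefSeq (GRCm38.p6).

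Members and lists were chosen with earlier results of these data known. All members past the threshold in any comparison are given in full, the others by summaries, and up to 4 other pathway genes per comparison by smallest p, of which 1 is not reported here.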

Additional observations from a re-analysis of the deposited data

How the results depend on the processing

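Alternatives were recomputed for the 59 calls, and none of these fold changes turned direction. Of the values, 960 kept their call and 158 lost it, and 14 of the 20 calls over 12 libraries, all of them higher, remained under every alternative run. The number of members called moved by more than 1.5 times under a few settings. With the replicate block, the Asb2 cKO against the control gave 4 and the double mutant against the Flna-labelled group gave 23. The block gave 15 for the double mutant against the control, 20 over 12 libraries and 0 elsewhere. It ended the calls of Bmp6, Bmpr1a, Smad4, Smad7, Smad9 and Tgfb2 in the Asb2 cKO (adjusted p 0.0546 to 0.142), of Id3 in the double mutant against the control (0.0740) and of Ltbp3 over 12 libraries (0.0611). Replicate numbers did not pair the samples: same-numbered libraries correlated in their deviations from -0.465 to 0.426, and no pair of groups had every correlation over 0.1. A joint fit of the 4 groups gave 8 for the double mutant against the Flna-labelled group, and with Xist as a covariate it gave 9 for the double mutant against the control. DESeq2 gave 1 for the double mutant against the Asb2 cKO. Leaving out 1 library at a time gave 4 to 9 for the Asb2 cKO against the control, 10 to 16 for the double mutant against the control, 7 to 21 against the Flna-labelled group and 16 to 21 over 12 libraries. The cause of these shifts was not tested. With 3 libraries a group, scarce genes such as Inhba and Bmpr1b had the widest intervals. The corrections for gene length and GC content were chosen after seeing the data.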
